A study of Arabidopsis thaliana with 3 samples.

Results

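COR15A, COR15B, COR47 and LTI30 are 4 Arabidopsis thaliana genes named for their induction by low temperature. They were chosen by name, as the probe sets annotated to these genes, out of 13286 genes that a single-gene probe set of the array represents. Their loci are AT2G42540 for COR15A, AT2G42530 for COR15B, AT1G20440 for COR47 (also called RD17) and AT3G50970 for LTI30 (also called XERO2), and each has 1 probe set. All 4 end in a plain _at, the suffix of probe sets designed to read a single transcript. Whether the probe sets of the related genes COR15A and COR15B also bind each other's transcripts was not tested, since no probe sequences were used here.

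RNA came from leaves of 2 week old plants on 3 arrays, 1 per genotype. Line A carries the title MKK2-w.t.4 and the source name MKK2-EE4, line B carries the title MKK2-EE4 and the source name MKK2-W.T.4, and both have the Col-0 background. Col-0, the standard laboratory accession, was untreated. The series compares overexpression of MKK2 as the wild type and as a constitutively active form, but the labels disagree on which line holds which form, so the lines are compared only as A and B. No label names a cold treatment, and none of the sources used here gives the promoter of the MKK2 transgenes. With 1 array per genotype, no difference below has a replicate error or a test.

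During cold acclimation, Arabidopsis induces CBF (DREB1) transcription factors, which bind the CRT/DRE element in the promoters of COR genes. COR15A and COR15B encode closely related proteins of the chloroplast stroma that fold on drying and help keep chloroplast membranes intact during freezing. COR47 and LTI30 are dehydrins, highly hydrophilic and largely unfolded proteins with lysine-rich K-segments that associate with membranes, and COR47 is the acidic member of this pair and LTI30 the basic one. MKK2 is a MAP kinase kinase that is activated by cold and salt and acts on the MAP kinases MPK4 and MPK6.

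The values are MAS5 signals on a linear scale. Signals under 25 were set to 25 before ratios were taken, because low MAS5 signals are imprecise, and such signals made up 45.5% of the 22746 compared probe sets in MKK2 line A, 42.7% in MKK2 line B and 42.0% in Col-0. All ratios of the lines to Col-0 share the 1 Col-0 array. Among 3 leaf markers with a probe set (LHCB4.1, RCA and PSAE1, of 9 listed), signals ran from 4324 to 5899 on the 3 arrays and none was under the floor. The root hair expansins EXPA7 and EXPA18, the only 2 of 3 root markers with a probe set, were under 25 on all arrays. The guard cell gene GC1 had signals of 315 in MKK2 line A and 289.7 in MKK2 line B, against 375 in Col-0, and no seed or flower marker has a probe set named here. Of 6 ratios of 3′ to 5′ signal in the control probe sets, a sign of RNA integrity, 4 were above Col-0 in both lines. The ratios come from actin, GAPDH and ubiquitin alone, each read by more than 1 pair of probe sets, so they are not independent. One actin ratio was 4.09 in MKK2 line A and 3.83 in MKK2 line B, against 3.03 in Col-0, and a second was 2.88 and 3.08 in these lines, against 2.83 in Col-0. For GAPDH the first was 2.29 in MKK2 line A and 2.39 in MKK2 line B, against 2.19 in Col-0. The second GAPDH ratio was 1.15 and 0.966 in these lines, against 0.816 in Col-0. The ratios of ubiquitin were below Col-0 in both lines, at 2.92 in MKK2 line A and 3.02 in MKK2 line B, against 3.75 in Col-0, for the first, and 1.77 and 1.80 in these lines, against 2.03 in Col-0, for the second. Their part in the differences below was not tested.

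The dehydrin COR47 stood above Col-0 in both lines and had, with the floor of 25, the highest ratios of the 4 members. Its signal was 289.7 in MKK2 line A and 229.9 in MKK2 line B, against 143 in Col-0. The order was thus MKK2 line A, MKK2 line B, Col-0. The ratio was 2.03-fold in MKK2 line A and 1.61-fold in MKK2 line B, and MKK2 line A was 1.26-fold above MKK2 line B. To place these ratios, the 4156 probe sets with a signal of 25 or more on every array and a mean signal within 2-fold of that of COR47 were used as a description of the arrays. Their central 95% ran from 0.638-fold to 2.26-fold for MKK2 line A over Col-0 and from 0.617-fold to 1.85-fold for MKK2 line B over Col-0. COR47 therefore lay inside the range of other probe sets of like signal in both comparisons, near its upper end: 3.06% of them had a ratio as high or higher in MKK2 line A and 4.33% in MKK2 line B. Between the lines, 11.3% had a ratio of MKK2 line A to MKK2 line B as high as that of COR47.

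LTI30, the other dehydrin, was read just above or under the floor. Its signal was 28.4 in MKK2 line A and 26.4 in MKK2 line B, against 14.3 in Col-0. Both lines were just above the floor of 25 and Col-0 was under it, so the floor lowers the ratios to Col-0. They were 1.14-fold in MKK2 line A and 1.06-fold in MKK2 line B, lower bounds only if the line signals are taken as exact. Signals this close to the floor are imprecise. Quantile normalization gave a log2 ratio of 0.03 for MKK2 line B over Col-0, in place of 0.08. MKK2 line A was 1.08-fold above MKK2 line B. With a floor of 10 the ratios to Col-0 were 1.98-fold and 1.84-fold, and with a floor of 50 no difference could be measured, since all 3 signals lie below 50. The ratios of LTI30 thus change with the floor, which replaces its Col-0 signal. With the floor of 25, 11.7% of all compared probe sets had a ratio as high or higher in MKK2 line A and 21.3% in MKK2 line B.

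COR15A stood slightly below Col-0 in both lines. Its signal was 32.6 in MKK2 line A and 31.9 in MKK2 line B, against 38.3 in Col-0. These are ratios of 0.849-fold and 0.832-fold, and the lines differed by 1.02-fold. All 3 signals are close to the floor, and under loess centring the log2 ratio of MKK2 line A over Col-0 was -0.04 in place of -0.24. Of 3952 probe sets of like signal, 39.8% had a ratio as low or lower in MKK2 line A and 27.0% in MKK2 line B, so COR15A sat in the middle of the array's spread.

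**Figure D1:**
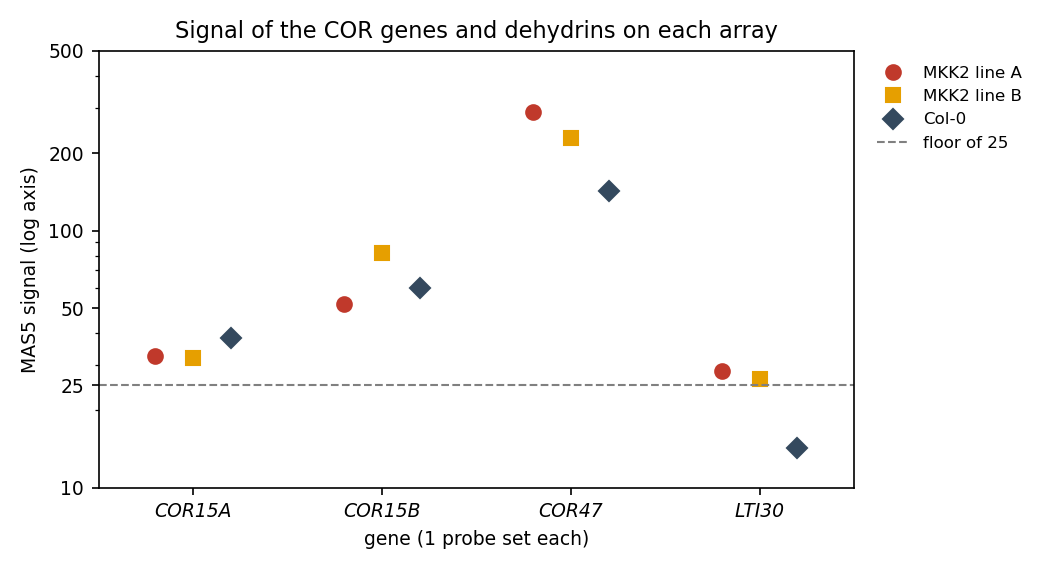
MAS5 signal (log axis) of COR15A, COR15B, COR47 and LTI30 on the arrays of MKK2 line A, MKK2 line B and Col-0, with 1 point per array and the floor of 25 as a dashed line. COR47 and LTI30 are higher in both lines than in Col-0, COR15A is lower in both, and COR15B is highest on the MKK2 line B array.

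COR15B was the only member above Col-0 in one line and below it in the other. Its signal was 51.8 in MKK2 line A and 82.2 in MKK2 line B, against 59.7 in Col-0. The ratio to Col-0 was 0.867-fold in MKK2 line A and 1.38-fold in MKK2 line B, and MKK2 line B was 1.59-fold above MKK2 line A. Among 6430 probe sets of like signal, 40.9% had a ratio to Col-0 as low or lower in MKK2 line A, and 8.20% had one as high or higher in MKK2 line B. Between the lines COR15B stood further out: 3.23% had a ratio of MKK2 line A to MKK2 line B as low or lower, and the central 95% ran from 0.610-fold to 1.62-fold, which includes the COR15B value of 0.631-fold.

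COR15A and COR15B are direct neighbours among the protein-coding genes of the TAIR10.1 reference, and their probe sets did not give the same pattern. COR15B was higher in MKK2 line B than in Col-0, while COR15A was lower. The gene on the other side of COR15B did give its pattern. AT2G42520, singled out after its values were seen, had signals of 36.7 in MKK2 line A and 57.6 in MKK2 line B, against 42.6 in Col-0, which are ratios of 0.862-fold and 1.35-fold. Line B was 1.57-fold above MKK2 line A. Likeness was measured as the distance between the pairs of log2 ratios to Col-0. Of the 11749 other probe sets with a signal of 25 or more on every array, 3 lay closer to COR15B than AT2G42520, at a distance of 0.025, while 7653 lay closer to COR15B than COR15A did, at a distance of 0.73. AT2G42520 was chosen on these same values, so its rank describes the choice and is no test. Whether neighbouring genes share a pattern was not tested. COR47 has a direct neighbour with a probe set too, AT1G20430, and its ratios to Col-0 were 1.07-fold and 0.892-fold. Of the 11749 others, 4906 lay closer to COR47 than AT1G20430, and 9230 lay closer than AT1G20410, which is 2 genes away. For COR15A, 1882 lay closer than TBL39, which is 3 genes away, 9489 closer than AT2G42520 and 9661 closer than COR15B.

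**Figure D2:**
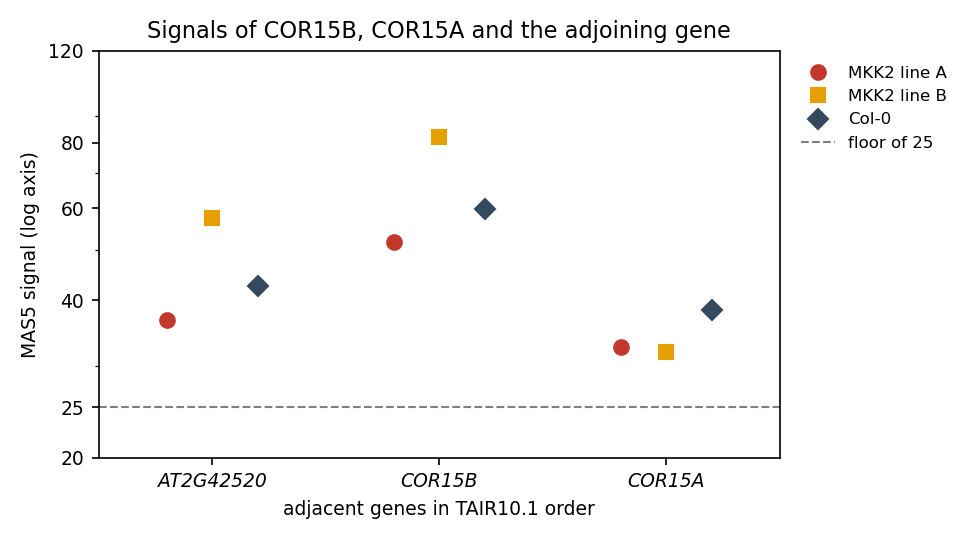
MAS5 signal (log axis) of AT2G42520, COR15B and COR15A, which adjoin each other in this order in TAIR10.1, with 1 point per array and the floor of 25 as a dashed line. AT2G42520 and COR15B are both highest in MKK2 line B and lowest in MKK2 line A, and COR15A is highest in Col-0.

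Counted at a ratio of 2-fold or more, 1 of 4 members was higher in MKK2 line A than in Col-0, and this was COR47 at 2.03-fold, just past the threshold. The same threshold was met by 1.4% of all compared probe sets in that direction, and 0.391% were lower by as much. In MKK2 line B none of the 4 was 2-fold higher or lower, beside 0.941% and 0.536% of all probe sets. Between MKK2 line A and MKK2 line B none of the 4 was either, beside 0.585% higher in MKK2 line A and 0.18% lower. The members' median log2 ratio was -0.01 in MKK2 line A over Col-0, 0.27 in MKK2 line B over Col-0 and 0.07 in MKK2 line A over MKK2 line B. The same median was 0.00 over all compared probe sets, and -0.08, -0.04 and -0.03 over the 11750 with a signal of 25 or more on every array. The members' medians join COR47 and LTI30, both above Col-0 with the floor of 25, with COR15A below it. They also include COR15B, which was below Col-0 in MKK2 line A only. Both medians over Col-0 are midpoints between COR15B and LTI30, and the LTI30 ratio changes with the floor.

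**Figure D3:**
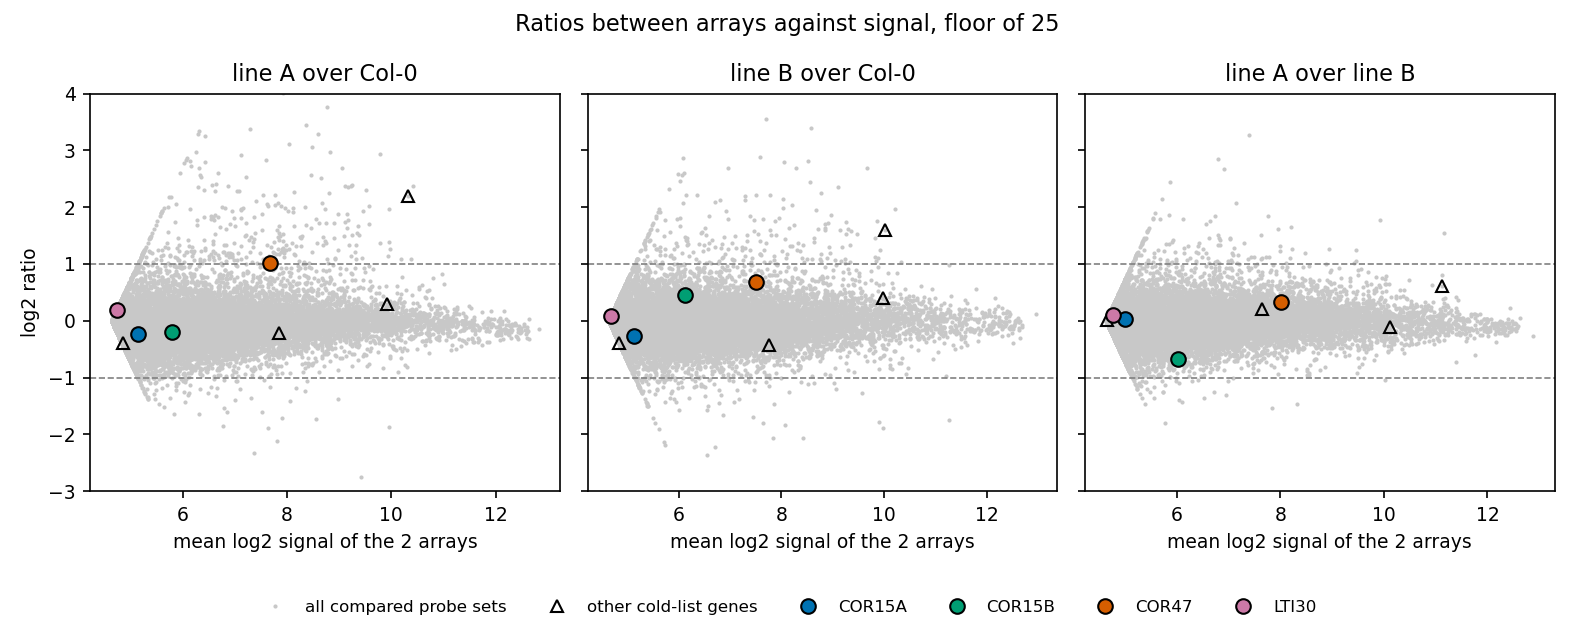
Log2 ratio of MKK2 line A over Col-0, MKK2 line B over Col-0 and MKK2 line A over MKK2 line B against the mean log2 signal of the arrays compared, for all compared probe sets (grey), the 4 members (coloured) and the 4 other cold-list genes with a signal of 25 or more on at least 1 array (triangles). Dashed lines mark 2-fold, which COR47 reaches in MKK2 line A over Col-0 and no member reaches in the other panels.

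The other genes of cold tolerance were taken from 6 lists that hold 82 genes with the members. Of the 78 others, 19 have a probe set annotated to them alone, and 15 of these were under 25 on all 3 arrays. LEA genes outside the dehydrin list make up 12 of the 19. Of the 22746 compared probe sets, 8730 had no gene name in the annotation used and 503 named several genes. A list gene without a probe set here is thus not shown to be absent from the array, and the 19 are no survey of cold tolerance. Only 1 of the 19, STZ, was 2-fold or more apart from Col-0 in either line, and none was 2-fold apart between the lines. Among the 14003 compared probe sets with a signal of 25 or more on at least 1 array, which 4 of the 19 reached, 2.91% were 2-fold apart in MKK2 line A, 2.40% in MKK2 line B and 1.24% between the lines. STZ (ZAT10), a zinc finger repressor that many stresses induce, had signals of 2751 in MKK2 line A and 1805 in MKK2 line B, against 599 in Col-0.

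Within the dehydrin list, 6 of 10 genes have a probe set. HIRD11, a small dehydrin, had signals of 1075 in MKK2 line A and 1157 in MKK2 line B, against 881 in Col-0, which are ratios of 1.22-fold and 1.31-fold. AT2G21490, AT4G38410 and AT4G39130 were under 25 on all arrays, the highest signal among them being 18.7. COR47 and HIRD11 are the only dehydrins of the list with a signal of 25 or more on every array, and both were above Col-0 in both lines. Of all compared probe sets, 8.07% had a ratio as high as that of HIRD11 or higher in MKK2 line A and 6.37% in MKK2 line B. The share of all probe sets above Col-0 in both lines was not counted, and both ratios share the 1 Col-0 array. ERD10, the dehydrin gene beside COR47, and XERO1, the one beside LTI30, have no probe set named here.

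Among 22 other cold-induced protection genes, 4 have a probe set, including COR15A and COR15B. COR27, a cold-induced gene that links the clock to freezing tolerance, had signals of 214 in MKK2 line A and 186 in MKK2 line B, against 249 in Col-0, or 0.860-fold and 0.746-fold. Of all compared probe sets, 19.4% had a ratio as low or lower in MKK2 line A and 6.98% in MKK2 line B. COR28, the relative of COR27, was under 25 throughout. Of 19 other LEA genes (late embryogenesis abundant, the class of desiccation proteins to which dehydrins belong), 12 have a probe set and 11 were under 25 on all arrays. The exception was AT2G46140 (LEA27), with signals of 25.2 in MKK2 line A and 16.9 in MKK2 line B, against 33.0 in Col-0. None of the 6 genes of the MKK2 cascade list and none of the 9 genes of sugar and proline metabolism has a probe set named here, and STZ was the only 1 of 16 cold regulators that has. The CBF genes are thus not reported.

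The genes whose ratios to Col-0 were most like those of each member were sought among probe sets of named genes with a mean signal of at least 100. For COR47 they were AT4G25620, AT5G48540 and AT5G66070, at distances of 0.028, 0.041 and 0.058 over the 3 arrays. AT4G25620 had signals of 452 in MKK2 line A and 358 in MKK2 line B, against 225 in Col-0. Only 5 of 3005 probe sets lay within 0.1 of COR47. For COR15A they were ILR3, a basic helix-loop-helix transcription factor of iron homeostasis, AT1G15410 and AT4G26650, and 155 of 3006 probe sets lay within 0.1. ILR3 had signals of 529 in MKK2 line A and 517 in MKK2 line B, against 621 in Col-0. For COR15B they were AT1G62780, AT1G56050 and AT4G10330, with 9 of 3006 within 0.1. AT1G62780 had signals of 139.7 in MKK2 line A and 221 in MKK2 line B, against 160.0 in Col-0. The COR15A ratios thus lay where probe sets were dense, and those of COR47 and COR15B where they were sparse. These counts restate where the ratios lie among all ratios and were not a test of shared expression. COR15A and COR15B, with signals under 100 on every array, were set beside brighter probe sets only. LTI30 was left out because its Col-0 signal is under the floor.

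**Figure D4:**
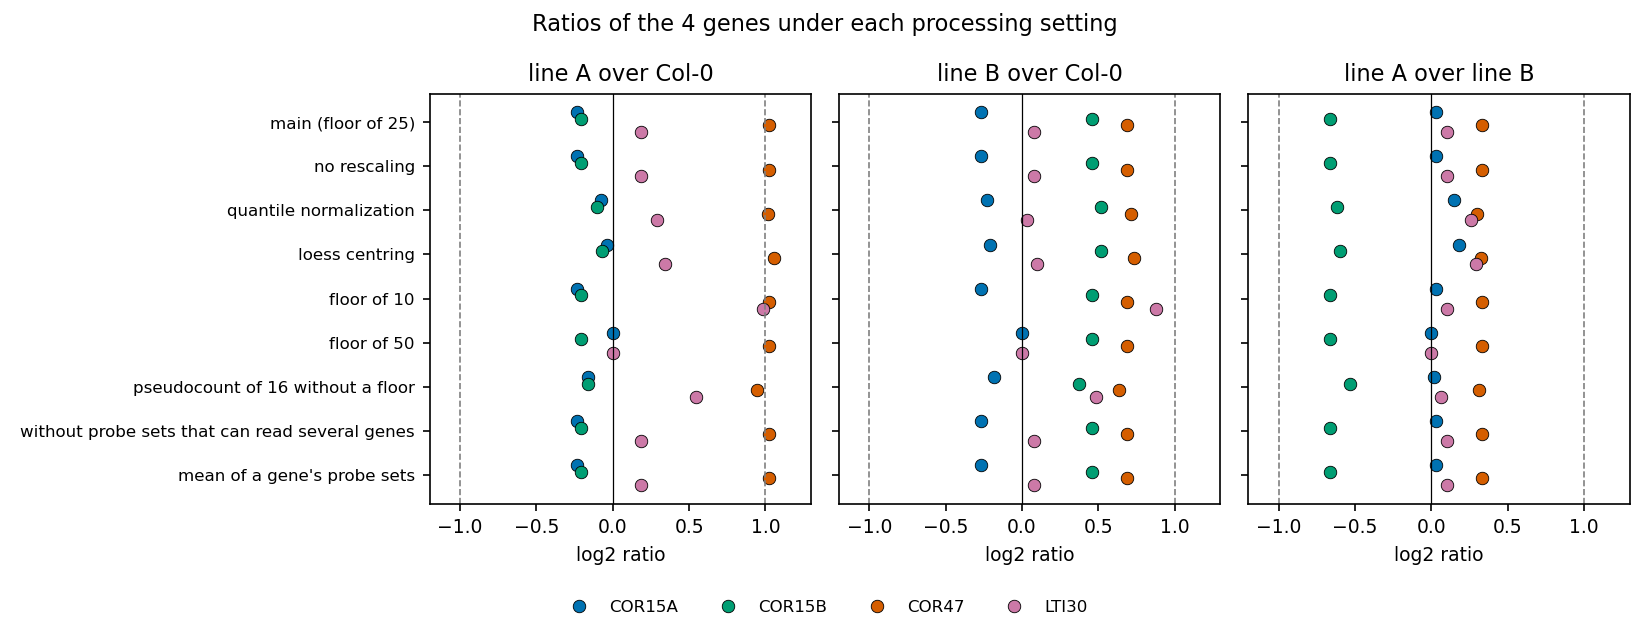
Log2 ratio of each of the 4 genes under the main processing and 8 alternative settings, for MKK2 line A over Col-0, MKK2 line B over Col-0 and MKK2 line A over MKK2 line B, with dashed lines at 2-fold. COR47 and COR15B keep their sides of 0 in every setting drawn, of which only quantile normalization and loess centring could change a side. COR47 falls short of 2-fold in MKK2 line A with a pseudocount of 16, and LTI30 moves with the floor.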

How the data were processed

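The authors' deposited values are intensities on a linear scale, 1 for each probe set on each array, made with MAS5 per the submitters' processing notes. Sources used here give neither a software version nor detection calls. Each array's mean after trimming 2% at both ends was 100.01, and each was scaled to exactly 100. Signals under 25 were set to 25 before log2 ratios, and 64 control probe sets were left out. With 1 array per genotype no test was made, and the number of arrays limits the precision. Names came from the platform annotation through gene numbers of the TAIR10.1 reference. Coordinates are not printed because the chip's build is not given. The members and the gene lists were chosen with earlier results of these data known. Genes named or counted are the members, all list genes with a probe set of their own, and the 3 nearest patterns per member. These patterns had a signal of 25 or more on all arrays and a mean of at least 100. Neighbours of COR15A, COR15B and COR47, up to 3 genes away, were added outside this selection. The alternatives tried were floors of 10 and 50, a pseudocount of 16 with no floor, unscaled values, loess centring with a span of 0.4, quantile normalization, thresholds of 1.5-fold and 3-fold, leaving out probe sets that can read several genes, and averaging a gene's probe sets. Counting was tested on simulated data. Python 3.11.15, numpy 2.4.6, pandas 2.3.3 and statsmodels 0.14.6 were used.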

Additional observations from a re-analysis of the deposited data

Results flagged for a closer look

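COR15B and the leaf marker LHCB4.1 were each above Col-0 in MKK2 line B and below it in MKK2 line A. They are listed only because their log2 ratios to Col-0 had opposite signs in the lines. The share of all probe sets with opposite signs was not counted. The log2 ratio of COR15B to Col-0 was -0.21 in MKK2 line A and 0.46 in MKK2 line B. For LHCB4.1, a light-harvesting protein gene, the log2 ratio was -0.084 in MKK2 line A and 0.12 in MKK2 line B. Of all compared probe sets, 29.9% had a ratio as low as that of LHCB4.1 or lower in MKK2 line A. In MKK2 line B, 18.8% had one as high or higher. For COR15B these shares were 20.4% and 4.81%. With 1 array per line, neither difference was tested.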

How the results depend on the processing

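No paired analysis was possible because each genotype has 1 array. At a pseudocount of 16 without a floor, 0 members were 2-fold apart in MKK2 line A, since the log2 ratio of COR47 was 0.95. At 3-fold the number was 0 as well. At 1.5-fold, 1 member was apart in MKK2 line B (COR47), and 1 member (COR15B, lower in MKK2 line A) and 1 other cold gene (STZ) between the lines. Over all probe sets, the number apart in MKK2 line A was 407, with 957 at a floor of 10, 1645 at 1.5-fold and 133 at 3-fold. In MKK2 line B it was 336, with 765 at a floor of 10, 216 at a floor of 50, 1410 at 1.5-fold and 86 at 3-fold. Between the lines it was 174, with 622, 86, 1083 and 22 under the same settings. With a floor of 10 the share that was higher was 46.9% in MKK2 line A (78.1% at 25), 52.9% in MKK2 line B (63.7% at 25) and 44.4% between the lines (76.4% at 25). At 1.5-fold with the floor of 25 it was 45.8%, 49.7% and 49.2%. Signs of all 4 members held under quantile normalization and loess centring, the only alternatives that could reverse them. Floors and a pseudocount cannot reverse a sign, though a floor of 50 put COR15A and LTI30 at 0. Unscaled values were almost the same, and the settings on probe sets cannot change members with 1 plain _at probe set each. Across alternatives the log2 ratio over Col-0 ran from 0.95 to 1.06 in MKK2 line A and from 0.63 to 0.73 in MKK2 line B for COR47, and from 0.00 to 0.98 and from 0.00 to 0.88 for LTI30. For COR15B it ran from -0.21 to -0.07 and from 0.37 to 0.52, and for COR15A from -0.24 to 0.00 and from -0.27 to 0.00, with -0.075 in MKK2 line A under quantile normalization. COR15A, near the floor, and LTI30 and 16 of the 19 other cold genes, under it on at least 1 array, are limited by dim signals.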
